A study of Aquilegia coerulea with 32 samples.

Results

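The 7 loci described here are *Aquilegia* genes that the paper places in the ubiquitination pathways by annotation: the *TIR1* homolog *Aqcoe2G310400*, the F-box loci *Aqcoe7G317700* and *Aqcoe7G317600*, the RING/U-box locus *Aqcoe3G311800*, the HCP-like locus *Aqcoe5G357900*, the *RUB1* homolog *Aqcoe3G298400* and the *AJH2* homolog *Aqcoe7G310200*. They are 7 of the 30023 loci in the expression tables, and all 7 passed the filter on low counts, as did 20477 loci in all. They were picked by the study as hub genes of one co-expression module, on how closely each followed the module and stage s4 across these same libraries. Their levels by stage are therefore a description: no p-value of s4 against another stage is given for them, and counts past a threshold in such comparisons support nothing. Each study annotation rests on the closest *Arabidopsis thaliana* gene. Those annotations name *Aqcoe3G311800* as RING/U-box and *Aqcoe5G357900* as HCP-like, and do not say whether either holds an F-box. The paper lists a further hub with these loci, the *DA2* homolog *Aqcoe7G340300*. It is outside the 7 and is counted with the RING or U-box loci below.

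The libraries came from floral meristems dissected from wild-type, vernalised *Aquilegia coerulea* 'Kiragami' plants after part of the sepals had been removed. At s1 stamen primordia were still forming, at s2 the staminodes (the sterile organs inside the stamens) had all appeared, at s3 the carpel rims stood raised, and at s4 the carpels had used up the apex. There were 8 libraries at each of the 4 stages, 32 in all. A library of s1, s2 or s3 held a pair of buds from different plants and one of s4 held a single bud, so stage s4 and the number of buds cannot be told apart. No batch was labelled. The paper counts fewer plants than libraries, so some libraries share a plant, and the labels do not say which. The p-values measure the spread between these samples and treat them as independent.

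In plants, ubiquitin is attached to proteins by an E1, an E2 and an E3 enzyme in turn, and chains of it usually send the protein to the proteasome. One large class of E3 is the SCF complex, in which a cullin scaffold joins a RING protein to the SKP1 adaptor and an F-box protein, and the F-box protein chooses the substrate. SCF complexes are switched on when the ubiquitin-like protein RUB (NEDD8 in animals) is joined to the cullin, and the COP9 signalosome takes RUB off again. In *A. thaliana* the F-box protein TIR1 is an auxin receptor: with auxin bound it recruits Aux/IAA repressors for degradation and so frees the auxin response factors (ARFs). RING and U-box proteins also work as E3 enzymes outside SCF complexes.

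Library totals ran between 21502103 and 31647297 estimated read counts with a median of 26405550, and no library pair held identical values. Library replicates 3 and 4 of s4 lay outside the range of the other 6 libraries of s4, on the side of the earlier stages, at all 7 loci. At *Aqcoe7G317600* the gap was small, with 8.55 and 8.64 TPM in those libraries and up to 8.08 TPM in the other 6, so values are given with and without them. Levels are given in TPM, the authors' measure of transcript level scaled for transcript length and library depth. The *Aquilegia* homolog of *EXS*, an anther gene in *A. thaliana*, had 12.6 and 17.3 TPM in those libraries, against 27.1 to 50.7 TPM in the other 6 of s4 and 5.12 to 13.6 TPM at s3. Other markers in replicates 3 and 4 did not all follow: the floral meristem markers, which summed to 20.8 and 15.4 TPM, and the meristem markers, with 68.4 and 44.1 TPM, were below the range of s3. The boundary markers summed to 13.3 and 6.49 TPM, of which only the value of replicate 4 was below s3. Their carpel marker, with 22.8 and 11.6 TPM, was below the 25.9 to 40.6 TPM of the other 6, and their stomatal markers summed to 17.9 and 9.86 TPM. All 12 marker loci examined were detected in every library. The summed level of the 3 meristem markers was 188 to 293 TPM at s1, 127 to 167 TPM at s2, 86.6 to 124 TPM at s3 and 39.4 to 68.4 TPM at s4. The 3 floral meristem markers summed to 131 to 232, 65.6 to 107, 35.6 to 50.7 and 13.3 to 25.9 TPM at s1, s2, s3 and s4, and the 2 boundary markers to 43.9 to 79.5, 18.9 to 34.4, 12.1 to 19.6 and 6.35 to 14.03 TPM. The carpel marker had 0.958 to 27.5, 24.6 to 44.8, 25.6 to 38.9 and 11.6 to 40.6 TPM in that order of stages, and the 2 stomatal markers summed to 1.45 to 7.87, 7.68 to 14.6, 7.18 to 18.7 and 7.15 to 20.6 TPM. The part of these shifts in the levels below was not tested.

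The *TIR1* homolog *Aqcoe2G310400*, the auxin-receptor F-box locus, was highest at s1 and lowest at s4. Its lowest, median and highest TPM were 63.8, 89.6 and 106.2 at s1, then 55.5, 79.7 and 103 at s2, then 50.04, 68.0 and 95.6 at s3, and 29.4, 32.4 and 63.0 at s4. All 8 libraries of s4 lay below all 8 of s1, while 6 of 8 lay below every library of s2 and of s3. The other s4 libraries were replicate 3 with 63.0 TPM and replicate 4 with 59.0 TPM, both inside the range of s3. The 6 remaining libraries averaged 31.7 ± 2.10 TPM (SD, n = 6), against 39.02 ± 13.7 TPM over all 8. The log2 fold change of s4 against s1 was −1.08 (SE 0.17) over all libraries and −1.41 without replicates 3 and 4. In these bulk samples fewer cells that express a gene and less RNA per cell cannot be told apart.

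The F-box loci *Aqcoe7G317700* and *Aqcoe7G317600* carry consecutive locus numbers, and the same *A. thaliana* gene, AT2G17030, is the closest match of both. That gene encodes an F-box protein with a DUF295 domain, a domain of unknown function. *Aqcoe7G317700* averaged 12.9 ± 1.74 TPM at s1, 10.7 ± 2.22 TPM at s2, 8.99 ± 2.15 TPM at s3 and 5.38 ± 1.62 TPM at s4 (SD, n = 8 each). Its s4 libraries spanned 3.31 to 8.21 TPM with a median of 5.10 TPM, below all of s1 (10.4 to 14.4 TPM) and all of s2 (8.69 to 14.8 TPM). *Aqcoe7G317600* averaged 15.2 ± 1.61, 13.4 ± 3.86, 12.5 ± 2.85 and 6.89 ± 1.41 TPM at s1, s2, s3 and s4. Its s4 libraries, 4.81 to 8.64 TPM with a median of 6.69 TPM, also lay below every library of s1 (12.7 to 17.5 TPM) and of s2 (10.5 to 21.9 TPM).

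For both loci 6 of 8 s4 libraries lay below all of s3, and the exceptions were again replicates 3 and 4, with 7.38 and 8.21 TPM of *Aqcoe7G317700* and 8.55 and 8.64 TPM of *Aqcoe7G317600*. The log2 fold change of s4 against s1 was −1.17 (SE 0.16) for *Aqcoe7G317700* and −1.07 (SE 0.15) for *Aqcoe7G317600*. Without those libraries it was −1.43 and −1.22 for the same loci. The estimated counts of both loci were fractional in every library, which means that their reads were partly shared with other transcripts. Their summed estimated count was whole in 0 of 32 libraries, so some of these reads were shared with transcripts outside the pair, and the levels of both loci and of their sum are uncertain to that extent. Whether the neighbours also shared reads with each other was not tested. The sum is not scaled for depth, and its lowest, median and highest values were 673, 732 and 876 at s1, then 490, 557 and 818 at s2, then 348, 542 and 765 at s3, and 268, 318 and 527 at s4.

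The RING/U-box locus *Aqcoe3G311800* (closest to AT5G62910) was the least abundant of the 7. Its lowest, median and highest TPM were 5.55, 7.88 and 9.40 at s1, then 4.77, 7.26 and 14.2 at s2, then 2.74, 5.12 and 9.07 at s3, and 1.74, 2.33 and 7.25 at s4. It was the locus for which 1 library mattered most: replicate 4 of s4 had 7.25 TPM and replicate 3 had 3.80 TPM, against 1.74 to 2.74 TPM in the other 6. Of the s4 libraries, 7 of 8 lay below all of s1. The log2 fold change of s4 against s1 was −1.24 (SE 0.27), −1.62 without replicate 4 and −1.76 without replicates 3 and 4.

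*Aqcoe5G357900* encodes an HCP-like protein, closest to AT1G67340. It averaged 56.3 ± 5.77 TPM at s1, 50.2 ± 8.91 TPM at s2, 46.0 ± 8.80 TPM at s3 and 33.1 ± 4.97 TPM at s4 (SD, n = 8 each). Its s4 libraries spanned 28.6 to 40.8 TPM with a median of 31.7 TPM, below every library of s1 (47.2 to 61.9 TPM) and of s2 (43.1 to 69.9 TPM). This was the smallest shift among the loci lower at s4, with a log2 fold change of −0.67 (SE 0.11) against s1, and −0.81 without replicates 3 and 4.

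The *RUB1* homolog *Aqcoe3G298400*, whose *A. thaliana* match encodes the modifier joined to cullins, was the most abundant of the 7 and was highest at s4. Its lowest, median and highest TPM were 237, 281 and 325 at s1, then 228, 289 and 335 at s2, then 251, 293 and 346 at s3, and 287, 384 and 421 at s4. Of the s4 libraries, 6 of 8 lay above all of s1 and of s2, and 5 of 8 above all of s3. Replicates 3 and 4 of s4 had 289 and 287 TPM, inside the range of every earlier stage, and the other 6 averaged 393 ± 35.04 TPM (SD, n = 6). The log2 fold change of s4 against s1 was 0.44 (SE 0.095). Its estimated count was whole in 11 of 32 libraries, so some of its reads were shared with other transcripts.

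The *AJH2* homolog *Aqcoe7G310200* encodes the COP9 signalosome subunit that in *A. thaliana* takes RUB off cullins. It averaged 125 ± 11.9 TPM at s1, 128 ± 15.9 TPM at s2, 133 ± 16.0 TPM at s3 and 163 ± 29.4 TPM at s4 (SD, n = 8 each). Its s4 libraries spanned 109 to 193 TPM with a median of 166 TPM, and 6 of 8 lay above all of s1 (106.3 to 142 TPM). Its log2 fold change of s4 against s1, 0.46 (SE 0.097), was close to that of the *RUB1* homolog. Without replicates 3 and 4, the values were 0.56 for *Aqcoe7G310200* and 0.51 for *Aqcoe3G298400*.

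**Figure D1:**
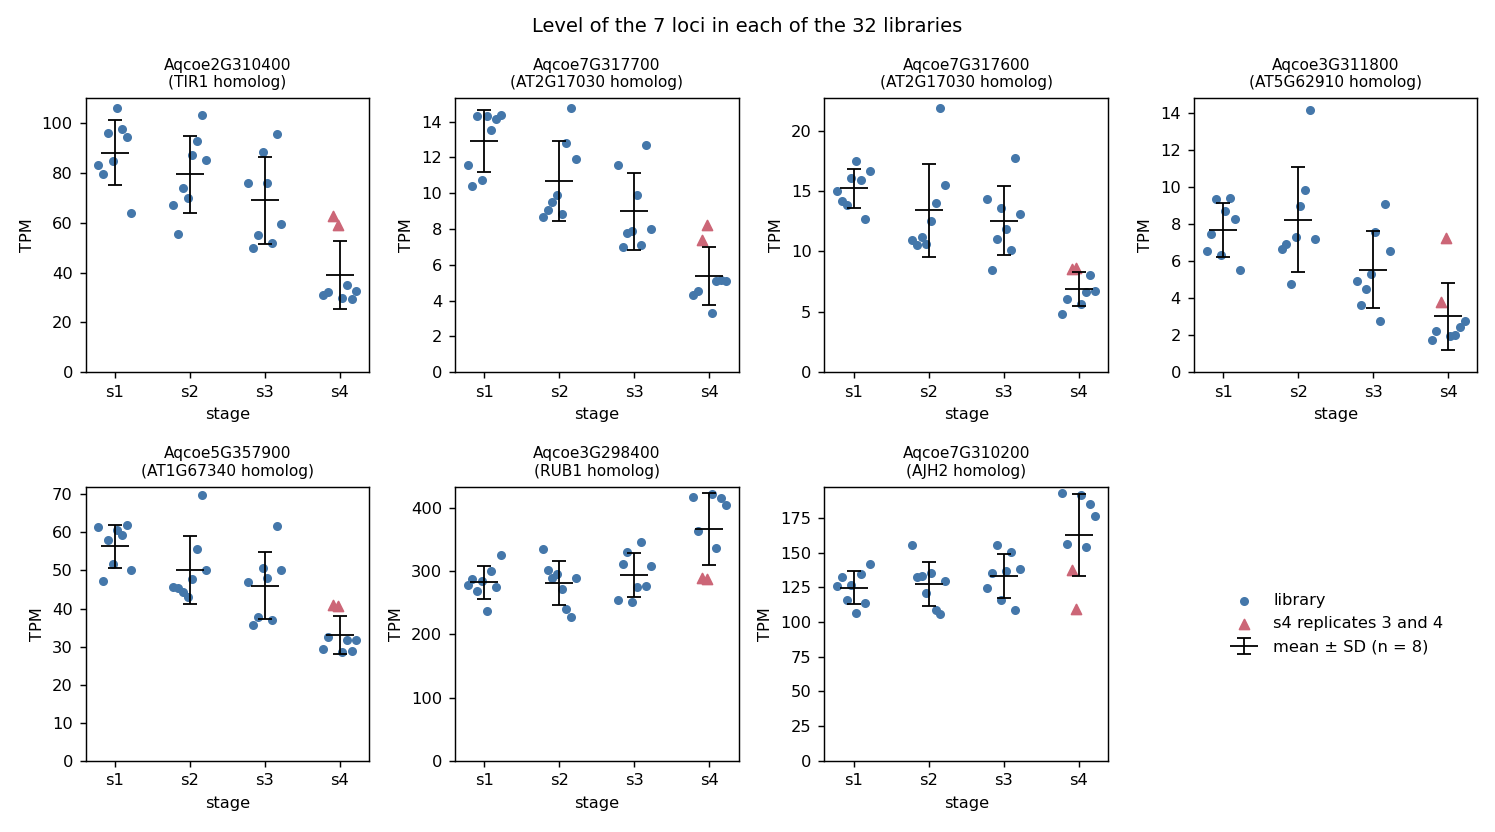
TPM (vertical axis, starting at 0) of each of the 7 loci in every library, by stage on the horizontal axis. Points are libraries, black marks are means with SD (n = 8 per stage) and red triangles are replicates 3 and 4 of s4, which lie on the side of the earlier stages at all 7 loci, with 63.0 and 59.0 TPM of the *TIR1* homolog against 29.4 to 35.2 TPM in the other 6 libraries of s4.

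On the TPM scale, which allows for transcript length, the order of the levels was *RUB1* homolog, *AJH2* homolog, *TIR1* homolog, *Aqcoe5G357900*, *Aqcoe7G317600*, *Aqcoe7G317700* and *Aqcoe3G311800* in 28 of 32 libraries. In mean level over all libraries the *RUB1* homolog stood at the 97.7th percentile of the tested loci, the *AJH2* homolog at 94.7, the *TIR1* homolog at 88, *Aqcoe5G357900* at 81.7, *Aqcoe7G317600* at 48.3, *Aqcoe7G317700* at 42.6 and *Aqcoe3G311800* at 33.9. The *TIR1* homolog and *Aqcoe5G357900* were closest at s4, where the means of 39.02 and 33.1 TPM differed by less than the SD of the *TIR1* homolog. The ranges of *Aqcoe7G317600* and *Aqcoe7G317700* overlapped at every stage. The levels rested on between 68 and 435 estimated counts per library for *Aqcoe3G311800* and between 2712 and 6787 for the *RUB1* homolog.

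Between the stages before s4, no locus of the 7 reached a log2 fold change of 1 in size. A locus was called where its adjusted p (edgeR's quasi-likelihood test, Benjamini-Hochberg over all 20477 tested loci) was under 0.05 and its log2 fold change was at least 1 in size. None of the 7 was called for s2 against s1, where 0.596% of tested loci were called, for s3 against s2 (0.313%) or for s3 against s1 (3.76%). DESeq2 and limma also called 0 of the 7 in each of these comparisons, and the unadjusted edgeR p was under 0.05 for 0, 1 and 2 of them in the same order. The smallest adjusted edgeR p was 0.0535, for *Aqcoe7G317700* at s3 against s1, with a log2 fold change of −0.49 (SE 0.16). The module that led to the 7 loci was built on these libraries too, so these comparisons are not independent of the choice. Over the 7 loci the log2 fold changes ran between −0.25 and 0.12 for s2 against s1, with a median of −0.13, and between −0.57 and 0.08 for s3 against s2, with a median of −0.12. The value of −0.57 belonged to the RING/U-box locus (SE 0.26). For s3 against s1 the range was −0.49 to 0.12, with a median of −0.26. The 5 loci lower at s4 were already lower at s3 than at s1, with values of −0.49 to −0.26. The median over all tested loci was within 0.02 of 0 in every comparison of stages.

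Against s4, the choice of the loci fixed their direction. None of the 7 reached a log2 fold change of 1 in size for s4 against s3, where 1.19% of tested loci were called. The values there were −0.81 for *Aqcoe7G317600*, −0.79 for *Aqcoe3G311800*, −0.75 for the *TIR1* homolog, −0.67 for *Aqcoe7G317700*, −0.41 for *Aqcoe5G357900*, 0.35 for the *RUB1* homolog and 0.34 for the *AJH2* homolog. For s4 against s2, *Aqcoe3G311800* alone was past both thresholds, with a log2 fold change of −1.36 (SE 0.27), where 5% of all tested loci were called in either direction and 1.09% as lower. For s4 against s1, 4 of the 7 were, all lower: the *TIR1* homolog, the DUF295 pair and *Aqcoe3G311800*. In that comparison 9.24% of tested loci were called, 1.94% as lower. Against the mean of s1, s2 and s3 it was *Aqcoe3G311800* again, with −1.13, where 6.01% were called and 1.05% as lower. Nothing about the 7 is read from these shares, since the choice used the same contrasts, and the comparisons share the s4 libraries.

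These counts depended on single libraries of s4. Without replicate 4 of s4 they were 1 for s4 against s3, 3 for s4 against s2 and 4 against the mean of the earlier stages, and without replicate 3 they were 2 for s4 against s2 and 2 against that mean. Without both they were 2, 4 and 4 in that order of comparisons, and the count for s4 against s1 stayed at 4. The calls over all tested loci grew too. Without replicate 4, those called lower were 0.976%, 1.99% and 1.98% in that order of comparisons. Without replicate 3 they were 1.24% for s4 against s2 and 1.29% against the mean. Without both they were 2.67%, 3.44% and 3.28% in that order, and 4.01% for s4 against s1. The *RUB1* and *AJH2* homologs stayed under a log2 fold change of 1 in each of these fits.

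**Figure D2:**
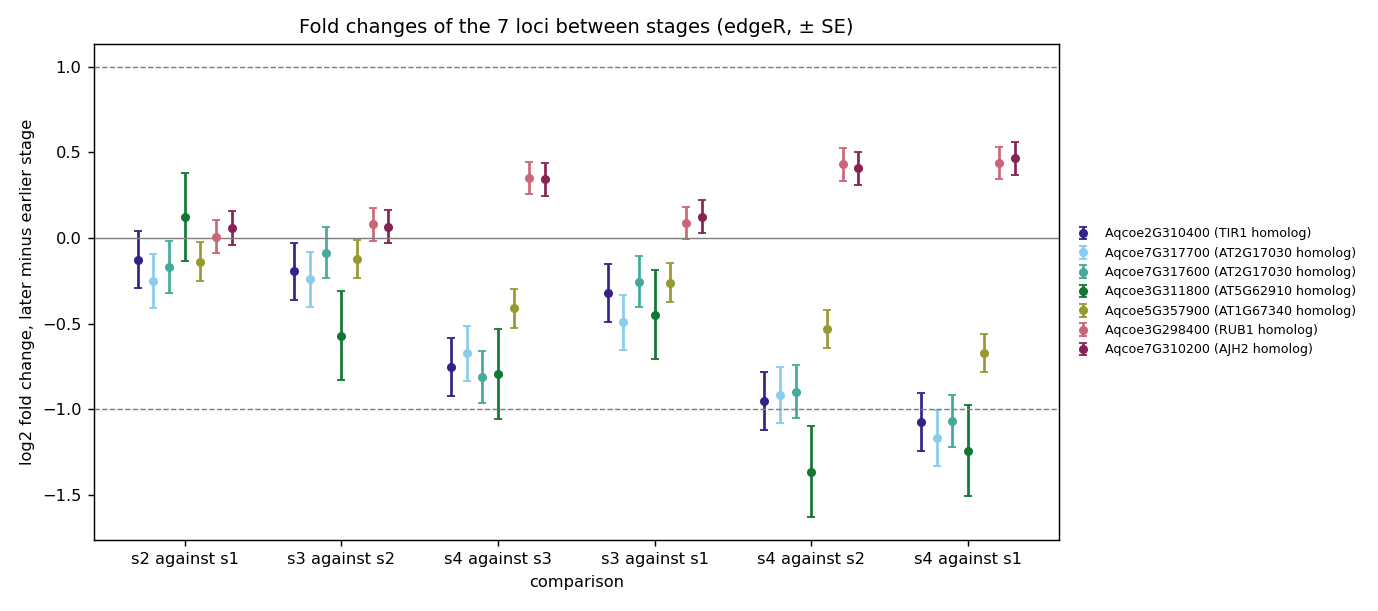
Log2 fold changes (edgeR, later stage minus earlier stage, bars are SE) of the 7 loci in the 6 comparisons between stages, with dashed lines at 1 and −1. Of the comparisons that leave out s4, none has a locus past the dashed lines, and for s4 against s1 the 4 loci past them lie between −1.24 and −1.07.

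At s2, s3 and s4, 1 library of the stage held the extreme of several loci at once. In each library the log2 CPM (the count scaled to the library total) of a locus was set against the mean of its stage. At s2, replicate 7 was highest for all 5 loci that are lower at s4, and lowest for both loci that are higher at s4. At s3, replicate 7 was highest for all 5 and lowest for the *AJH2* homolog. At s4, replicate 4 was highest for all 5 and lowest for the *AJH2* homolog, and replicate 3 was lowest for the *RUB1* homolog. At s1 no library was highest for more than 2 of the 5, and replicate 5 was lowest for both higher loci.

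Across all 32 libraries, Pearson's r of log2 CPM was 0.86 to 0.93 for the 10 pairs among the 5 loci lower at s4, 0.94 between the *RUB1* and *AJH2* homologs, and −0.94 to −0.82 for the 10 pairs across the sets. After each stage's mean was taken out, the same ranges were 0.69 to 0.84, 0.89 and −0.90 to −0.61. Without replicates 3 and 4 of s4 they were 0.61 to 0.80, 0.89 and −0.86 to −0.53. These are descriptions over libraries that also chose the module. The loci followed a component shared by many genes: the first principal component of the 5000 most variable tested genes, after each stage's mean was taken out, which may hold the 7 loci, took 36.6% of the within-stage variance. The within-stage values of the *TIR1* homolog correlated with it at r = 0.91, those of *Aqcoe3G311800* at 0.89, of *Aqcoe5G357900* at 0.88, of *Aqcoe7G317700* at 0.83, of *Aqcoe7G317600* at 0.76, of the *RUB1* homolog at −0.76 and of the *AJH2* homolog at −0.91. The highest libraries on that component were replicate 4 of s4, replicate 7 of s3 and replicate 7 of s2, with scores of 0.595, 0.331 and 0.294. Over the 7 loci, r with the library total was −0.29 to 0.34 and r with the mean transcript length of a library was −0.16 to 0.27. What underlies the component was not tested.

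**Figure D3:**
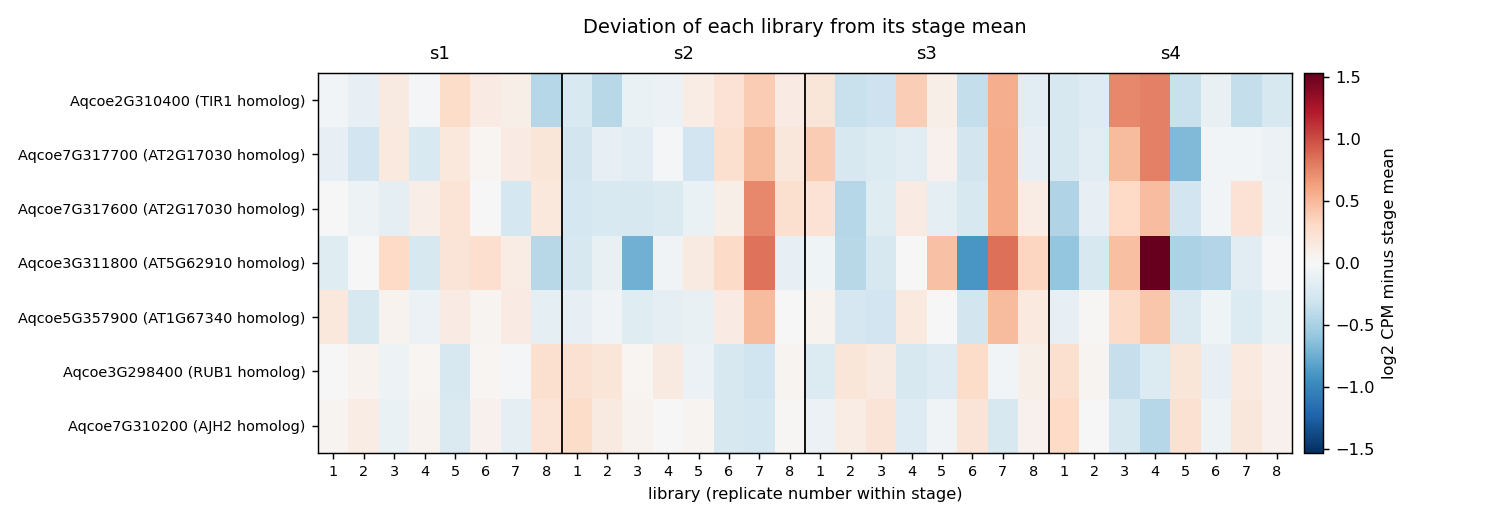
Log2 CPM of each of the 7 loci (rows) minus the mean of its stage, in each of the 32 libraries (columns, grouped by stage), on a colour scale from below to above the stage mean. Replicate 5 of s1, replicates 6 and 7 of s2, replicate 7 of s3 and replicates 3 and 4 of s4 are the columns where all 5 loci lower at s4 lie above their stage mean and the *AJH2* homolog lies below it.

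The ratio of the members of each pair changed less than the levels did. The TPM of the *AJH2* homolog divided by that of the *RUB1* homolog was 0.442 ± 0.015, 0.455 ± 0.025, 0.454 ± 0.034 and 0.443 ± 0.030 in stage order (SD over the 8 libraries of a stage), so the stage means differed by less than the SD of each stage. The lowest ratio, 0.379, was in replicate 4 of s4. For *Aqcoe7G317700* over *Aqcoe7G317600* the ratio was 0.857 ± 0.151, 0.813 ± 0.093, 0.724 ± 0.096 and 0.775 ± 0.123 at s1, s2, s3 and s4, and it also carries the uncertainty of their shared reads.

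**Figure D4:**
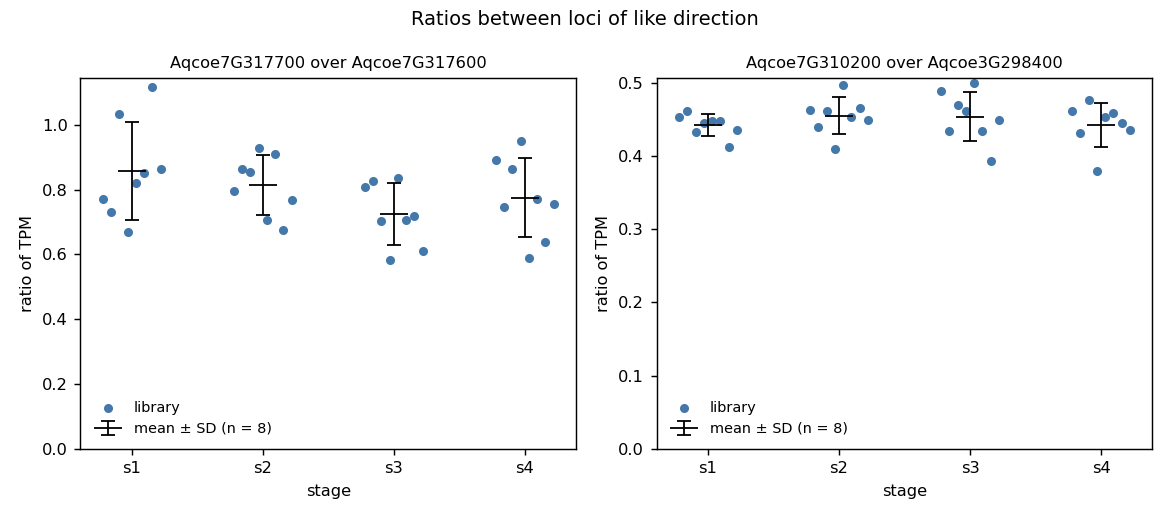
Ratio of TPM (vertical axis, no unit) in each library by stage, for *Aqcoe7G317700* over *Aqcoe7G317600* (left panel) and for the *AJH2* homolog over the *RUB1* homolog (right panel). Points are libraries, black marks are means with SD (n = 8 per stage), and the stage means in the right panel lie between 0.442 and 0.455.

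The loci whose log2 CPM followed each of the 7 most closely over the 32 libraries were named by rank of Pearson's r. The closest to the *TIR1* homolog was *Aqcoe5G348900*, a homolog of the hydroxysteroid dehydrogenase gene *HSD1*, at r = 0.973, with means of 9.49, 8.01, 5.56 and 1.74 TPM at s1, s2, s3 and s4. It was also the closest to *Aqcoe3G311800*, at r = 0.930. After it for the *TIR1* homolog came *Aqcoe2G129900*, a homolog of the growth-regulating factor gene *GRF4* (r = 0.961), and *Aqcoe7G023600* (0.957). After it for *Aqcoe3G311800* came *Aqcoe7G397900*, a homolog of the transcriptional corepressor gene *LUG*, at r = 0.916. Another F-box locus with DUF295, *Aqcoe7G318500*, was the closest to both *Aqcoe7G317700* (r = 0.953) and *Aqcoe7G317600* (0.938), and ranked 3 for *Aqcoe3G311800* (0.915). Its mean was 7.96 TPM at s4, against 20.9 TPM at s1, and its estimated count was whole in only 1 of 32 libraries, so it too shares reads with other transcripts. The next for *Aqcoe7G317700* were *Aqcoe5G237200*, a homolog of the Argonaute gene *AGO5* (0.926), and *Aqcoe3G073000* (0.923). For *Aqcoe7G317600* they were *Aqcoe4G028700*, which encodes a DUF641 protein (0.921), and the *ABIL2* homolog *Aqcoe7G007100* (0.913).

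*Aqcoe4G028700* was the closest to *Aqcoe5G357900* (r = 0.952), followed by *Aqcoe1G387100* (0.944) and *Aqcoe1G437600* (0.938), a homolog of the amino acid transporter gene *CAT7*. For the *RUB1* homolog the ranks were *Aqcoe5G339500* (0.951), *Aqcoe6G168900* (0.946) and *Aqcoe1G491000* (0.945). For the *AJH2* homolog they were *Aqcoe3G125400* (0.952), *Aqcoe1G250700* (0.951) and *Aqcoe5G364500* (0.949). These last 6 loci are named by identifier alone. Their means at s4 were 165 to 342 TPM, against 118 to 272 TPM at s1.

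The other ubiquitin and auxin loci that the study annotated were set beside the 7. The list holds 83 loci, drawn nearly all from the study's own tables of stage differences in these libraries, so its counts are not independent evidence of a direction. For s4 against s1, 45 of the 83 were called higher, 27 lower and 11 were not called, with a median log2 fold change of 1.15, where 7.31% of all tested loci were called higher and 1.94% lower, and the median over all tested loci was 0.01. The 61 loci of ubiquitin transfer had 34 higher and 20 lower, with a median of 1.21. Over the whole list, the excess of higher over lower loci depended on the fit. With the filter on low counts set at 8 libraries, 64 of the 83 were tested, of which 28 were called higher and 26 lower, where 5.81% of all loci tested were called higher and 1.79% lower. By limma 27 of the 83 were called higher and 23 lower, where 4.17% of all loci tested were called higher and 2% lower. The class counts below were not taken by class under that filter or by limma. In them, rose and fell mean called higher and lower for s4 against s1. Some loci that rose had low levels at every stage.

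The list held 2 loci for other SCF subunits, and they moved in opposite directions. The cullin 1 homolog *Aqcoe2G305700*, the scaffold, fell to 3.57 ± 0.775 TPM at s4, against 7.66 ± 1.21 TPM at s1 (SD, n = 8 each). Its log2 fold change was −1.03 (SE 0.163). *Aqcoe3G296600*, a homolog of the SKP1-like adaptor gene *ASK3*, rose to 120 ± 30.5 TPM at s4, against 26.7 ± 5.77 TPM at s1. Its log2 fold change was 2.22 (SE 0.184). No p-value is given for these loci, since the list was drawn nearly all from tables of stage differences in these libraries. Neither locus was called for s2 against s1. For s3 against s1 the *ASK3* homolog was called higher, with a log2 fold change of 1.23 (SE 0.179), where 3.76% of tested loci were called. The cullin 1 homolog was not called there, with −0.63 (SE 0.162).

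Of the 10 other loci with DUF295, 4 fell, 3 rose and 3 were not called, with a median log2 fold change of −0.92. Over all tested loci, 1.94% were called lower and 7.31% higher for s4 against s1. *Aqcoe2G389000* rose most, to 9.13 TPM at s4, against 0.730 TPM at s1, and *Aqcoe5G302100* rose to 1.06 TPM at s4, against 0.201 TPM at s1. *Aqcoe7G365300* fell most, to 0.981 TPM at s4, against 3.99 TPM at s1, and *Aqcoe7G318500* and *Aqcoe5G172500* had log2 fold changes of −1.30 and −1.01. The loci not called were *Aqcoe5G139600* (−1.12), *Aqcoe6G072000* (−0.82) and *Aqcoe5G138700* (0.90). A pair of loci share AT2G17030 as the closest match with *Aqcoe7G317700* and *Aqcoe7G317600*, and they differed in direction. *Aqcoe5G139800* fell to 0.479 TPM at s4, against 1.22 TPM at s1, and *Aqcoe2G389100* rose to 1.80 TPM at s4, against 0.869 TPM at s1. The counts of *Aqcoe5G139800* were fractional in every library.

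Among 21 further F-box loci, 11 rose, 8 fell and 2 were not called, where 7.31% of all tested loci were called higher and 1.94% lower. The largest fall was of *Aqcoe4G199100*, a homolog of *UFO*, an F-box gene of petal and stamen identity in *A. thaliana*, with 0.313 TPM at s4, against 7.38 TPM at s1, and its counts were whole in only 4 of 32 libraries. The largest rise was of *Aqcoe3G281400*, a Kelch-repeat F-box locus, with 0.726 TPM at s4, against 0.0942 TPM at s1, both low levels. Among 17 RING or U-box loci, 12 rose, 4 fell and 1 was not called, beside the same shares over all tested loci. The *VIM1* homolog *Aqcoe3G422300*, which in *A. thaliana* acts in the upkeep of DNA methylation, fell to 3.07 TPM at s4, against 30.2 TPM at s1. The *KEG* homolog *Aqcoe1G066300* had 1.29 TPM at s4, against 0.0543 TPM at s1, both low levels.

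Of 4 loci for E2 enzymes, which pass ubiquitin to the E3, 3 rose and the *UBC24* homolog *Aqcoe1G264400* fell to 6.41 TPM at s4, against 14.4 TPM at s1. Over all tested loci, 7.31% were called higher and 1.94% lower for s4 against s1. The largest rise among the E2 loci was of the *UBC10* homolog *Aqcoe6G221500*, with a log2 fold change of 2.93 (SE 0.648). Its mean was 0.980 ± 1.01 TPM at s4 (SD, n = 8), against 0.135 TPM at s1. The *UBC28* homolog *Aqcoe5G212800* had 0.863 TPM at s4, against 0.185 TPM at s1. Both loci were at low levels, whereas the *UBC19* homolog *Aqcoe2G029500* rose to 152 TPM, against 65.0 TPM at s1. Of 5 loci for ubiquitin or SUMO, 3 rose, 1 fell and 1 was not called. The *UBQ10* homolog *Aqcoe3G211600*, a polyubiquitin locus, rose to 5.29 TPM at s4, against 0.720 TPM at s1. *Aqcoe5G469000*, which encodes ubiquitin joined to ribosomal protein L40e, rose to 1242 ± 232.5 TPM at s4, against 348.5 ± 50.8 TPM at s1 (SD, n = 8 each), with whole counts in 6 of 32 libraries. The *SUMO2* homolog *Aqcoe2G063200*, a modifier related to ubiquitin, fell to 175 ± 46.2 TPM at s4, against 593.5 ± 62.7 TPM at s1. Of the 2 loci for BTB adaptors, which bring substrates to another kind of cullin complex, the *BOP2* homolog *Aqcoe2G033300* fell to 36.4 TPM at s4, against 92.4 TPM at s1. The other, the *BT1* homolog *Aqcoe5G384600*, rose to 21.96 TPM at s4, against 7.92 TPM at s1.

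The proteins that TIR1 acts on and through in *A. thaliana* are Aux/IAA repressors and ARFs. Of 4 Aux/IAA loci 3 rose and the *IAA3* homolog *Aqcoe2G360500* fell, by 1.20 on the log2 scale (SE 0.354). Over all tested loci, 7.31% were called higher and 1.94% lower for s4 against s1. The largest rise among the Aux/IAA loci, of the *IAA11* homolog *Aqcoe7G236700*, was uneven over its libraries, with 1.45 ± 2.72 TPM at s4, against 0.0595 ± 0.0446 TPM at s1 (SD, n = 8 each). Of 3 ARF loci 1 rose, 1 fell and 1 was not called. The homolog of *MONOPTEROS* (*ARF5*), *Aqcoe5G226900*, fell to 108 ± 15.6 TPM at s4, against 236 ± 18.1 TPM at s1 (SD, n = 8 each). The *ARF2* homolog *Aqcoe5G074300* rose to 0.842 TPM at s4, against 0.402 TPM at s1.

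**Figure D5:**
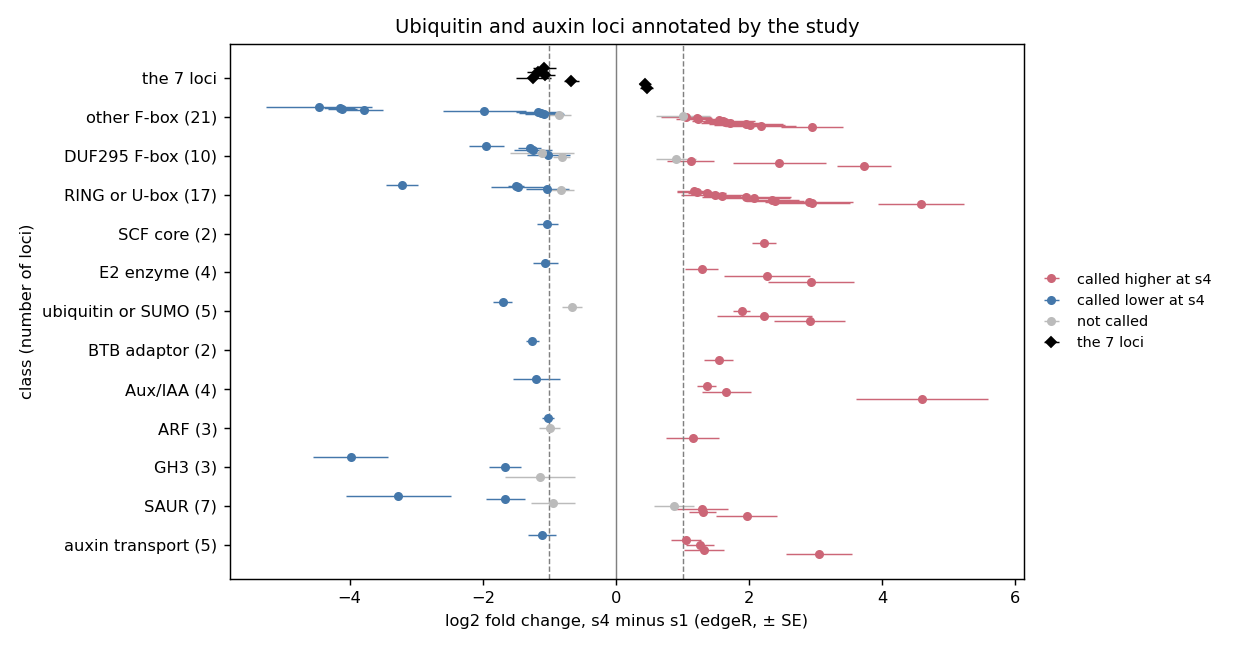
Log2 fold changes of s4 against s1 (horizontal axis, edgeR, bars are SE) of the 7 loci (black diamonds) and of the 83 listed loci by class, with the number of loci in brackets and dashed lines at 1 and −1. Loci called higher (45) are red, loci called lower (27) blue and loci not called (11) grey, and the classes spread to both sides.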

How the data were processed

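RNA-seq libraries of 8 samples at each of 4 stages were analysed. The authors trimmed reads with Trim Galore and mapped them with kallisto to the 'Goldsmith' reference transcriptome. For each locus the authors deposited a length, the estimated count that kallisto made from the mapped reads, an effective length, and the TPM value it made from that estimated count and the effective length. Reads that fit several transcripts are divided between them by estimate, so counts can be fractional (not whole within 1e-06).

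Estimated counts were rounded. The 20477 of 30023 loci above 1 CPM in 1 library or more were fitted over all 32 libraries with edgeR 4.0.16 (TMM scaling, quasi-likelihood test, R 4.3.3). The common dispersion was 0.0971, a biological coefficient of variation of 31.16%. A locus was called at a Benjamini-Hochberg adjusted p under 0.05 and a log2 fold change of at least 1 in size. Alternatives were DESeq2 1.42.0, limma 3.58.1 on log2(TPM + 0.5), other filters, the 16 libraries of a comparison alone, a replicate block, and leaving out each library. A within-stage component as covariate and leaving out replicates 3 and 4 of s4 together were added after the data were seen. The fitting code was tested on simulated counts, drawn independently for each library. They lacked the within-stage component that the real libraries share, so that test does not measure the error rate of the calls here. Values were handled with Python 3.11.15, numpy 2.4.6, pandas 2.3.3 and matplotlib 3.10.9.

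The members and the lists were chosen with earlier results of these data known. Loci named besides the 7 were the 3 with the highest r for each (log2 CPM, prior count 2), the SCF core loci, the DUF295 class, loci sharing a member's closest *A. thaliana* gene, and the largest called rise and fall of each class. *Aqcoe5G469000* was named after its values were seen. None of the loci matched an identifier in the 24823 entries of the reference tables, so homolog names are the study's and no sequence is printed.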

Additional observations from a re-analysis of the deposited data

Results flagged for a closer look

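Of 36 sets of 8 libraries examined, 4 had 1 library far from the others, where chance alone gives about 5% of independent sets. These sets share libraries, and their loci were chosen from 1 module, so that rate is no benchmark for the 4. At s2, replicate 7 was high for *Aqcoe7G317600*, with 21.9 TPM against a stage median of 11.8 TPM, and for *Aqcoe5G357900*, with 69.9 TPM against a median of 46.6 TPM. At s4, replicate 4 was high for *Aqcoe3G311800*, with 7.25 TPM against a median of 2.33 TPM. In the same library the ratio of the *AJH2* homolog to the *RUB1* homolog was low, 0.379 against a stage mean of 0.443 ± 0.030 (SD, n = 8). What set these libraries apart was not tested.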

How the results depend on the processing

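Of 2051 log2 fold changes of the 7 loci under the alternatives, 2048 moved by less than 1 SD of the replicates. Of the values past both thresholds 0 changed sign, and none did in a comparison with s4. The sign changed in 8 values of 3 small differences: *Aqcoe3G311800* for s2 against s1 (0.12, and −0.03 without replicate 7 of s2), *Aqcoe7G317600* for s3 against s2 (−0.09, and 0.05 without replicate 7 of s2) and the *RUB1* homolog for s2 against s1 (0.01, with −0.03 as the lowest). The values that moved further were of *Aqcoe3G311800* without replicates 3 and 4 of s4: −1.31 against s3, −1.76 against s1 and −1.65 against the mean of s1, s2 and s3. That setting called 2, 4 and 4 of the 7 loci for s4 against s3, s2 and that mean, and 945 and 1687 genes for s4 against s3 and s2. The cause was not tested. limma called 2 of the 7 for s4 against s2, where 3.35% of all tested loci were called and 1.1% as lower. Against that mean it called 2, where 3.23% were called and 1.17% as lower. Leaving out 1 library at a time gave 0 to 1 of the 7 for s4 against s3, 1 to 3 against s2, 4 to 4 against s1 and 1 to 4 against the mean.

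Over all genes, called numbers for s2 against s1 were 122, with 200 by DESeq2, 60 by limma, 78 from the 16 libraries alone, 205 with the within-stage component, and 73 to 160 leaving out 1 library (73 without replicate 6 of s1, 77 without replicate 4 of s2). For s3 against s2 they were 64, with 110 by DESeq2, 131 with the component and 46 to 80 leaving out 1 library. For s4 against s3 they were 243, with 157 from the 16 libraries, 478 with the component and 171 to 460 leaving out 1 library (460 without replicate 4 of s4). Leaving out 1 library gave 643 to 848 for s3 against s1, 886 to 1263 for s4 against s2, 1765 to 2011 for s4 against s1 and 1121 to 1384 against the mean. Against the mean 1231 genes were called, with 1967 unfiltered, 802 with the filter in at least 8 libraries and 661 by limma. The listed loci called higher at s4 against s1 were 28 with that filter and 27 by limma, against 45, and 41 to 46 higher and 23 to 31 lower leaving out 1 library. From estimated counts over transcript length the ratio of the *AJH2* to the *RUB1* homolog was 0.503, 0.521, 0.518 and 0.511 at s1, s2, s3 and s4. The labels pair no samples, and 5 of 32 libraries correlated best with their own replicate number. With the replicate number as a block, 99, 64, 209, 756, 958, 1813 and 1166 genes were called for s2 against s1, s3 against s2, s4 against s3, s3 against s1, s4 against s2, s4 against s1 and s4 against the mean, and 0, 0, 0, 0, 1, 4 and 1 of the 7 loci. The block called 44 listed loci higher and 27 lower. Depth limits *Aqcoe3G311800* most, with as few as 68 estimated counts in a library.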

Other observations

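The remaining auxin loci of the list are of the GH3, SAUR and auxin transport classes. Of 3 GH3 loci, whose *A. thaliana* homologs join auxin to amino acids, 2 fell at s4 against s1 and 1 was not called. The *GH3.1* homolog *Aqcoe5G214900* fell most, to 0.747 ± 1.09 TPM at s4, against 13.2 ± 4.57 TPM at s1 (SD, n = 8 each, log2 fold change −3.99, SE 0.563). Of 7 SAUR loci, a family of short auxin-induced genes, 3 rose, 2 fell and 2 were not called. The largest fall was of *Aqcoe6G255400*, with 0.113 TPM at s4, against 1.28 TPM at s1, and the largest rise of *Aqcoe7G162400*, with 2.29 TPM at s4, against 0.587 TPM at s1. Of 5 auxin transport loci 4 rose and 1 fell. The fall was of the *LAX2* homolog *Aqcoe6G211400*, an auxin influx carrier, with 88.04 ± 31.7 TPM at s4, against 200.3 ± 26.8 TPM at s1, and its counts were fractional in every library. The largest rise was of *Aqcoe6G169000*, an auxin efflux carrier family locus, with 0.749 TPM at s4, against 0.0955 TPM at s1. These loci were listed from the study's tables of stage differences, so the counts are a description. Over all tested loci, 7.31% were called higher and 1.94% lower for s4 against s1.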
